A study of Arabidopsis thaliana with 6 samples.

Results

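The 43 genes described here belong to 2 families known for loosening or remodelling the plant cell wall. They are 21 expansins and 22 XTH genes (xyloglucan endotransglucosylase/hydrolases) of *Arabidopsis thaliana*, and the activity is not shown for every member. They were taken by their locus codes, as members of these families, from the 33316 genes of the tables. The choice was made with earlier results of these data known. The expansins comprised 16 α-expansins (*EXPA*), 2 β-expansins (*EXPB*) and 3 expansin-like A genes (*EXLA*). The XTH genes comprised 7 of group 1, 9 of group 2 and 6 of group 3 of that family's phylogeny. Each of the 43 codes was found in the RefSeq annotation of TAIR10.1, whose positions are used throughout.

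The primary wall of a growing plant cell is a mesh of cellulose microfibrils tethered by xyloglucan and embedded in pectin. Expansins have no hydrolytic activity that is known to cut the wall; they loosen the contacts between cellulose and its matrix, and they do so best at acidic pH. XTH enzymes cut xyloglucan chains and join the cut end to another chain, and some members of group 3 transfer it to water instead, which shortens the chain. Auxin is the classical inducer of wall acidification and cell expansion in stems, and both families contain auxin-responsive members.

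The libraries were made from second internodes of inflorescence stems labelled 35S::Myc-GR-bdl, cut from plants of 15 to 20 cm. BODENLOS (BDL) is an AUX/IAA repressor of AUXIN RESPONSE FACTORs, bdl is its stabilised form, and the glucocorticoid receptor domain (GR) keeps the fusion inactive until dexamethasone (Dex) is given. Shoots were dipped into a mock solution (Mock, 3 libraries) or into 15 µM Dex (DEX, 3 libraries) and harvested 3 h later, and the comparison asks which wall-loosening genes changed soon after auxin signalling was blocked. Both groups carried the transgene, grew for 3 weeks with 8 h of light and afterwards with 16 h of light, and have no stated age beyond that. The 35S promoter that drives the transgene is active in most plant tissues, and the block was therefore not aimed at 1 cell type. For genotype, the growth description says wild type (Col-0), at odds with the titles and source names, which were followed. The study's methods give Columbia (Col-0) as the accession of its lines, apart from a mutant that is not among these libraries. Several plants were pooled per replicate according to the study's methods, and the p-values therefore measure the spread between these pools. Libraries of plants without the transgene, which would show the response to Dex itself, were not part of the files used here (0 libraries).

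Each library held between 30564459 and 37761257 reads assigned to genes, and 3 reads, the upper limit that a count of 0 allows, corresponded to between 0.0794 and 0.0982 CPM (gene reads scaled to a common library size, with TMM factors). That limit covers counting error only. Of the early auxin response genes, *HAT2* fell from 135 ± 9.84 CPM (SD, n = 3) in Mock to 1.23 ± 0.0948 CPM in DEX, and *IAA2*, *IAA19* and *ATHB8* fell as well. *BDL*, whose reads combine the native gene with the transgene, had 1502 ± 473 CPM without and 1461 ± 263 CPM with Dex. Of 11 vascular and epidermal markers, 10 passed the filter on low counts, with summed levels of 4195 to 4494 CPM in Mock and 3535 to 4568 CPM in DEX. Most of that sum came from *CESA4*, *CESA7* and *CESA8* of xylem and fibres (1498, 1077 and 1040 CPM in Mock). Among the markers edgeR called *NST3* and *WOX4*, which fell, and none that rose. Cambial *PXY* had 199, 162 and 156 CPM in Mock and 132, 145 and 82.3 CPM in DEX (-0.52 ± 0.21, edgeR adjusted p = 0.1885). Epidermal *ATML1* was fitted above 0 (0.14 ± 0.09, edgeR adjusted p = 0.443). DESeq2 also called the phloem markers *SUC2* (-0.50, adjusted p = 0.0245) and *APL* (0.44, 0.0236). Epidermal *PDF1* had 12 reads, root markers had 0 to 25 reads and the floral markers *AP3*, *PI* and *AG* 4 to 66 reads in all libraries together. A further floral marker, *SEP3*, had no entry among the genes and could not be read. The part of these markers in the changes described below was not tested.

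Levels of different genes were compared per exon length, as RPKM (exon reads scaled by exon length and library size). In Mock stems the most abundant members were *XTH24* with 206.6 ± 26.5 RPKM (SD, n = 3) and *EXPA4* with 153.7 ± 13.3 RPKM. A second tier was formed by *XTH27* (86.0 ± 31.0 RPKM), *XTH9* (82.4 ± 17.6 RPKM), *XTH32* (66.4 ± 20.7 RPKM), *XTH4* (59.9 ± 19.7 RPKM) and *XTH28* (57.8 ± 2.51 RPKM), whose neighbours in this order did not differ beyond their spread. Among the expansins, *EXPB3* (50.9 ± 6.84 RPKM) and *EXPA6* (37.4 ± 3.17 RPKM) followed *EXPA4*. The remaining members that could be tested lay between *XTH16* with 0.535 ± 0.221 RPKM and *EXPA15* with 31.6 ± 15.8 RPKM. In DEX stems *XTH24* stayed first with 370.9 ± 64.7 RPKM, whereas *XTH27* (76.8 ± 20.2 RPKM) and *EXPA15* (75.5 ± 17.5 RPKM) came next and *EXPA4* was at 63.9 ± 11.4 RPKM. Each family thus had 1 dominant gene in Mock stems.

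**Figure D1:**
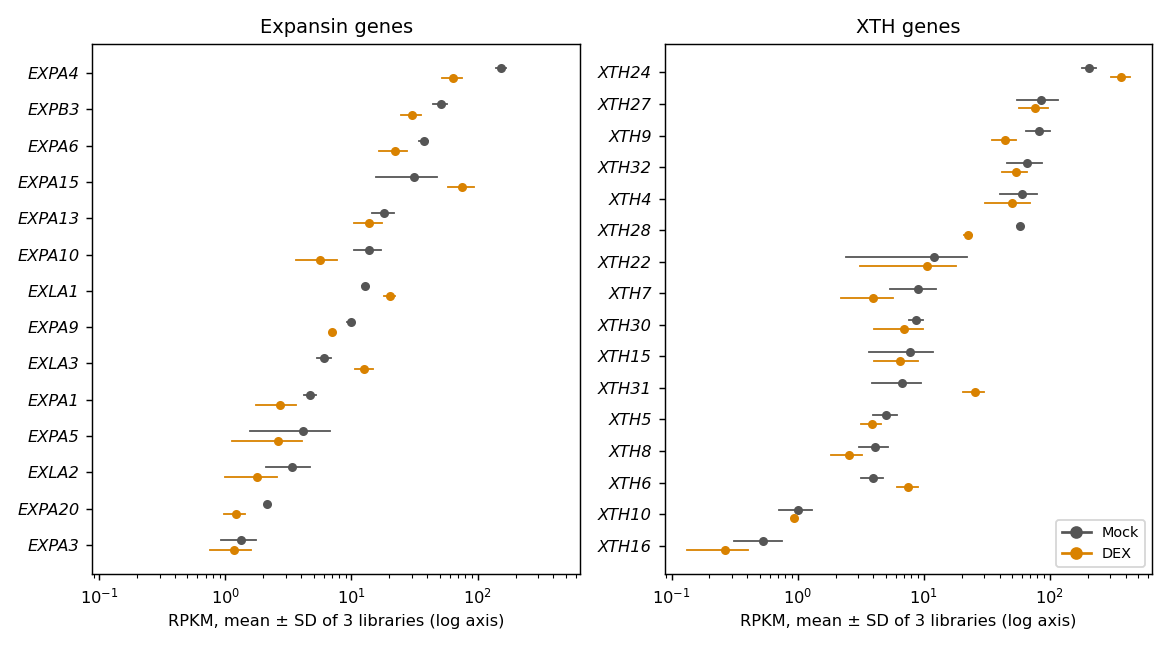
Mean RPKM of the 14 expansin and 16 XTH genes that could be tested, on a log axis, with lines giving ± 1 SD over 3 libraries (grey, Mock; orange, DEX). *XTH24* and *EXPA4* top the Mock order of their families at 206.6 and 153.7 RPKM, and *EXPA15* passes *EXPA4* in DEX.

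Enough reads for a test were present for 30 of the 43 members, 14 expansins and 16 XTH genes. Dex treatment lowered 8 of them and raised 5 (edgeR quasi-likelihood F test, Benjamini-Hochberg adjusted p below 0.05 over all 19598 genes tested), which is 43.3% of those tested where 11.9% of all genes were called. Of the tested members 26.7% fell and 16.7% rose, against 5.5% and 6.38% of all genes. The order of falls and rises over all genes (1077 and 1250) turned with library totals alone (1278 and 1016) or upper-quartile factors (1201 and 1110), whereas the members' counts did not change with either. Among expansins 6 fell and 2 rose (57.1% called), and among XTH genes 2 fell and 3 rose (31.25% called). All 5 called *EXPA* genes and the only tested *EXPB* gene fell, and both called *EXLA* genes rose; the called XTH genes were split between directions in groups 1 and 3. The median log2 fold change was -0.65 over the 14 expansins and -0.20 over the 16 XTH genes, beside -0.01 over all genes tested. In bulk tissue, fewer cells that express a gene and less RNA per cell cannot be told apart.

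The CPM of the 3 Mock and the 3 DEX libraries did not overlap for 15 of the 30 members, 50% of them, where this held for 28.3% of all genes. These were the 13 called members together with *EXPA1* and *EXPA15*. Of the 13 calls, 6 held in every alternative way of processing and in every set of 5 libraries that was tried: *EXPA4* and *XTH28* fell, and *EXLA1*, *EXLA3*, *XTH24* and *XTH31* rose. The other 7 lost significance when at least 1 single library was left out. With all 6 libraries, the fitted change was below 0 for 11 of the 14 tested expansins, called or not. Fewer expansins were called as falling when any single library was left out. When this was a Mock library, called falls no longer outnumbered called rises. Without Mock 1 there were 1 that fell and 3 that rose, and without Mock 2 or Mock 3 there were 2 and 2. Without DEX 1 or DEX 2 there were 3 that fell and 2 that rose, and without DEX 3 there were 4 and 2. Falls and rises over all genes became fewer as well, from 1077 and 1250 with all 6 libraries. They were 836 and 955 without Mock 1, 690 and 615 without Mock 2, and 879 and 903 without Mock 3. Without DEX 1 they were 822 and 909, without DEX 2 852 and 950, and without DEX 3 1000 and 1198. The fitted direction of the called expansins did not change in any of these sets. Without Mock 2 only 3 XTH genes were called.

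**Figure D2:**
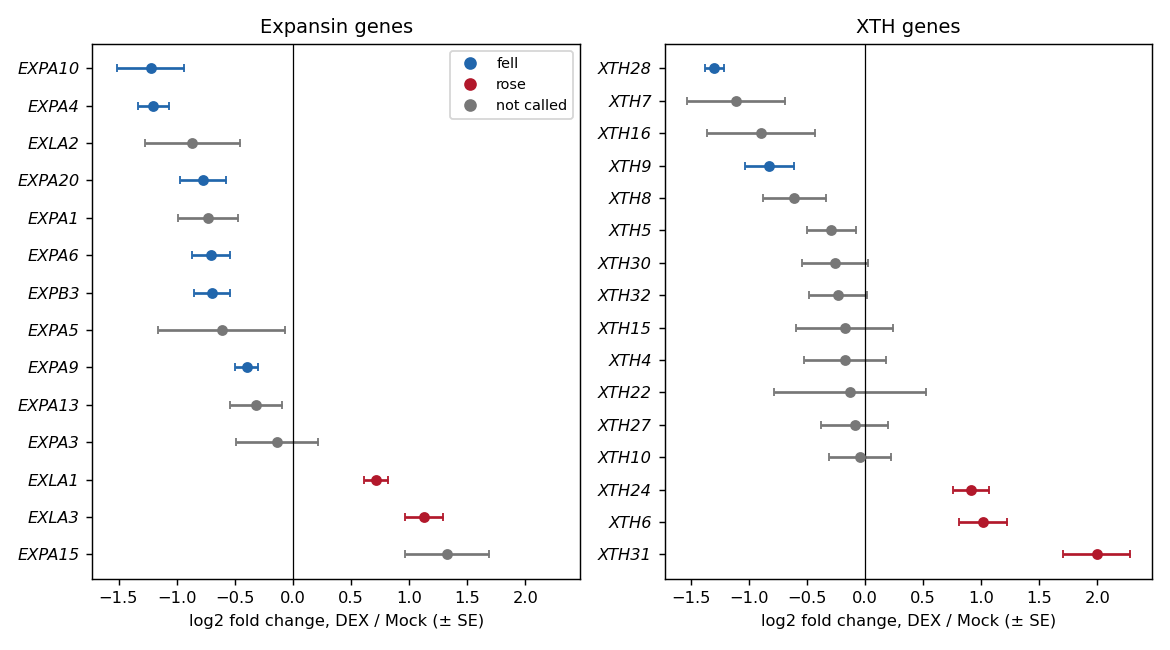
Log2 fold change of DEX over Mock with its standard error for each tested expansin (left) and XTH gene (right), blue where the gene fell, red where it rose and grey where it was not called. Expansins reach from -1.22 (*EXPA10*) to 1.33 (*EXPA15*, not called) and XTH genes from -1.30 (*XTH28*) to 1.99 (*XTH31*).

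*EXPA4* (AT2G39700, chr2:16543832-16545746, minus strand) is the α-expansin with the highest level in these stems. It gave 191, 192 and 220.3 CPM in Mock libraries 1, 2 and 3, and 78.05, 103 and 81.1 CPM in DEX libraries 1, 2 and 3. Every DEX library lay far below every Mock library, and the mean was 2.30-fold lower in DEX (201 ± 16.7 against 87.5 ± 13.8 CPM, log2 fold change -1.20 ± 0.13 (SE), edgeR adjusted p = 0.0013, range over 16 alternatives 2.48e-14 to 0.00806).

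*EXPA10* (AT1G26770, chr1:9259432-9261313, plus strand), an α-expansin known for its role in leaf growth and in pedicels, had 17.1, 24.1 and 15.6 CPM in the Mock libraries. The DEX libraries held 11.1, 8.18 and 5.07 CPM. Both groups varied widely around their means but stayed apart (-1.22 ± 0.29, edgeR adjusted p = 0.0342). The call ended without Mock 1 (0.0658), Mock 2 (0.127) or DEX 2 (0.103).

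For *EXPA6* (AT2G28950, chr2:12431338-12433796, minus strand), a further α-expansin, 56.8, 47.8 and 50.3 CPM were counted in Mock and 26.8, 40.3 and 28.15 CPM in DEX. DEX 2 was closer to Mock 2 and Mock 3 than to the other DEX libraries. The gene fell (-0.70 ± 0.16, edgeR adjusted p = 0.0319), and the call depended on each library except DEX 2, with adjusted p between 0.069 and 0.0986 without any other one.

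The β-expansin *EXPB3* (AT4G28250, chr4:13999625-14002124, minus strand) belongs to the branch of the family that grasses have expanded and that is smaller in *Arabidopsis*. Its levels were 71.5, 56.2 and 71.8 CPM in Mock and 43.2, 46.9 and 33.1 CPM in DEX. It fell by 0.70 on the log2 scale (SE 0.15, edgeR adjusted p = 0.0268), although not past the threshold without Mock 1 (0.0805), Mock 3 (0.0772) or DEX 1 (0.059).

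The smallest called decrease was that of *EXPA9* (AT5G02260, chr5:463073-465273, plus strand), a weakly expressed α-expansin. Its Mock libraries had 11.4, 12.5 and 13.1 CPM and its DEX libraries 9.45, 8.95 and 9.73 CPM, so that narrow groups lay close to each other (-0.40 ± 0.10, edgeR adjusted p = 0.0438). Leaving out any 1 of the 6 libraries ended the call (0.0586 to 0.164), as did testing without a filter on low counts (0.0568).

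*EXPA20* (AT4G38210, chr4:17922756-17923973, minus strand) was the least abundant called member, with 2.57, 2.33 and 2.34 CPM in Mock and 1.17, 1.37 and 1.69 CPM in DEX. The groups did not overlap (-0.77 ± 0.20, edgeR adjusted p = 0.0456). Only 63.0% of its reads were unique to it, and the gene overlaps AT4G38215 on the other strand. Its level is therefore uncertain. With unique reads alone the fold change was -0.64 and the gene was not called (0.137), nor was it without a filter (0.0548) and without Mock 1, Mock 2, Mock 3, DEX 1 or DEX 2 (0.105 to 0.138).

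Expansin-like A proteins have the domain layout of expansins but no shown wall-loosening activity. *EXLA3* (AT3G45960, chr3:16892702-16894153, plus strand) gave 6.69, 6.86 and 5.41 CPM in Mock and 16.5, 13.3 and 11.7 CPM in DEX. The lowest DEX library was above the highest Mock library, and the mean was 2.19-fold higher (1.13 ± 0.16, edgeR adjusted p = 0.00431, range over 16 alternatives 1e-07 to 0.0199).

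Its neighbour on chromosome 3, *EXLA1* (AT3G45970, chr3:16896166-16897308, plus strand), rose from 13.2, 11.7 and 12.4 CPM in Mock to 19.2, 19.2 and 22.8 CPM in DEX. Replicates were close together in both groups (0.72 ± 0.10, edgeR adjusted p = 0.00464, range over 16 alternatives 3.21e-06 to 0.0302). The gene overlaps AT3G45980 on the other strand, and the sources used here do not say whether strand entered the counting. The third gene of this branch, *EXLA2* (AT4G38400) on chromosome 4, went from 3.68 ± 1.44 to 2.01 ± 0.904 CPM (-0.87 ± 0.41, edgeR adjusted p = 0.262) and was not called.

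*EXPA15* (AT2G03090, chr2:916806-918671, minus strand) showed the largest fitted increase of any expansin without being called. Its Mock libraries spread from 65.2 CPM (Mock 1) over 37.7 (Mock 2) to 23.2 CPM (Mock 3), and its DEX libraries gave 120.0, 118 and 77.3 CPM. All DEX libraries were above all Mock libraries, and the mean was 2.51-fold higher, yet the fit gave 1.33 ± 0.36 with an edgeR adjusted p of 0.0565. The gene passed the threshold with DESeq2 (0.000591), limma-voom (0.0437), no filter on low counts (0.0403) or without Mock 1 (0.0118). It was the only tested *EXPA* gene of the 43 members with a fitted change above 0.

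*EXPA1* (AT1G69530), an α-expansin known from guard cells, also had groups that did not overlap, with 7.24, 5.83 and 6.285 CPM in Mock and 5.33, 3.80 and 2.535 CPM in DEX (-0.73 ± 0.26, edgeR adjusted p = 0.134). It was called without DEX 1 (0.0349). *EXPA13* (AT3G03220) had 26.0, 19.8 and 17.15 CPM in Mock and 19.6, 18.9 and 11.99 CPM in DEX, which overlap (-0.32 ± 0.22, edgeR adjusted p = 0.483). *EXPA5* (AT3G29030; -0.61 ± 0.54, edgeR adjusted p = 0.594) and *EXPA3* (AT2G37640; -0.14 ± 0.35, 0.878) were not called either.

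Of the XTH genes of group 1, *XTH9* (AT4G03210, chr4:1415617-1417444, plus strand), which is known to act in internode elongation and in secondary growth, fell. Levels of 108, 90.2 and 68.8 CPM in Mock stood against 60.6, 51.8 and 38.3 CPM in DEX. The replicates of each group differed nearly as much as the groups, which did not overlap (-0.82 ± 0.21, edgeR adjusted p = 0.0443). The gene was not called without Mock 1 (0.122), Mock 2 (0.138), DEX 2 (0.115) or DEX 3 (0.0842).

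*XTH6* (AT5G65730, chr5:26298728-26300529, plus strand) changed the other way within the same group. It was low in Mock with 5.21, 4.27 and 3.48 CPM and reached 10.7, 7.35 and 8.01 CPM in DEX. The mean was 2.02-fold higher (1.01 ± 0.20, edgeR adjusted p = 0.0185), with the call lost without Mock 2 (0.0801) or Mock 3 (0.0519).

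In group 2, *XTH24* (AT4G30270, chr4:14819192-14820595, minus strand), also known as *MERI5* from meristems, was the strongest expressed member of both families. Its 209.6, 265 and 256 CPM in Mock compared with 378.5, 469.5 and 529.7 CPM in DEX. No DEX library came near the Mock range, and the mean was 1.88-fold higher (0.91 ± 0.15, edgeR adjusted p = 0.00859, range over 16 alternatives 3.88e-07 to 0.034). *XTH18* and *XTH19*, which follow it directly on chromosome 4, had 23 and 1 reads in all 6 libraries together and were not tested.

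Group 3 contained the member with the largest increase, *XTH31* (AT3G44990, chr3:16446935-16448844, minus strand), which is known as an enzyme with predominant hydrolase activity. The Mock libraries held 12.5, 6.185 and 6.465 CPM and the DEX libraries 38.4, 35.0 and 26.4 CPM. Even the highest Mock library had less than the lowest DEX library, and the mean ratio was 3.98 (1.99 ± 0.29, edgeR adjusted p = 0.00437, range over 16 alternatives 3.77e-11 to 0.0221).

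*XTH28* (AT1G14720, chr1:5066525-5068677, minus strand), which acts in stamen growth and is placed in the same group, had the smallest adjusted p of all members. It was counted at 75.5, 75.5 and 81.3 CPM in Mock and at 30.9, 29.6 and 34.2 CPM in DEX. Replicates were tight, and the DEX mean was 0.407 of the Mock mean (-1.30 ± 0.08, edgeR adjusted p = 0.000138, range over 16 alternatives 5.11e-30 to 0.00167).

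**Figure D3:**
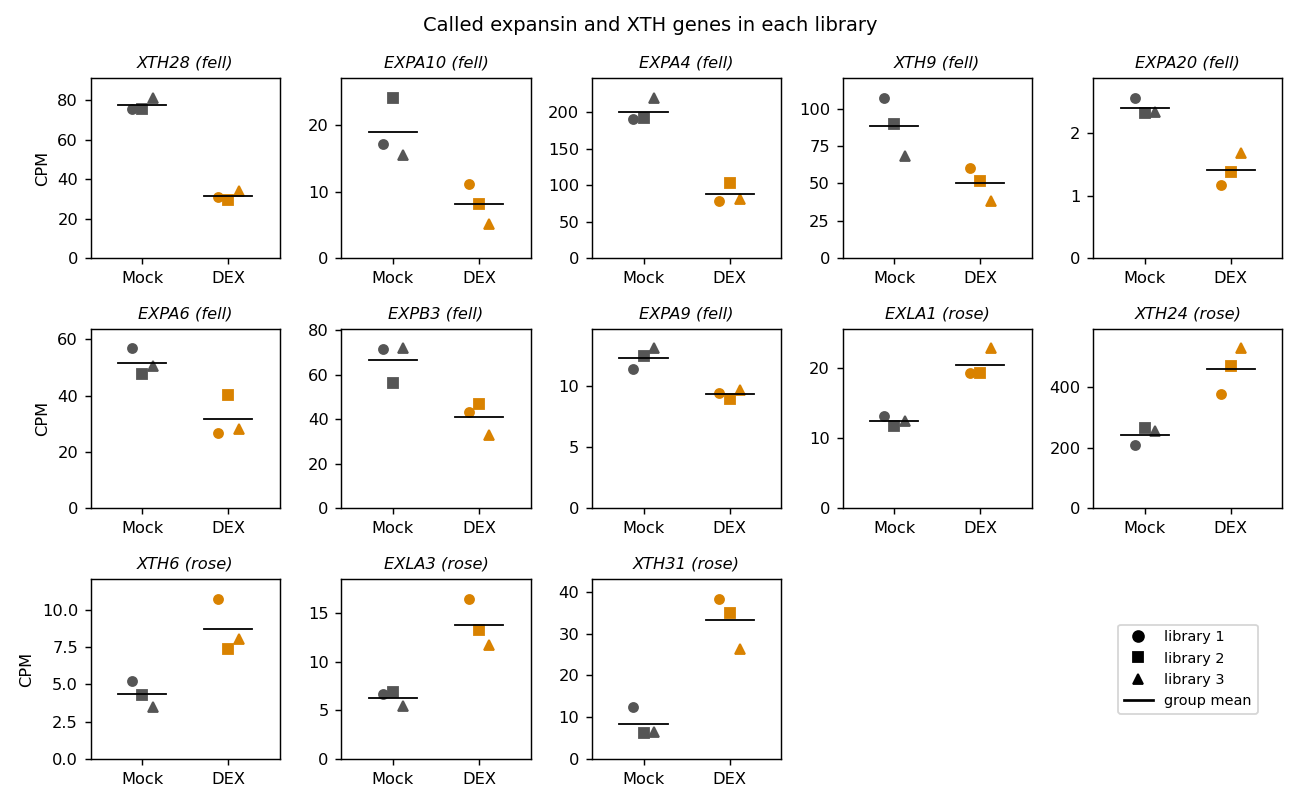
CPM of the 13 called members in each of the 6 libraries on axes that start at 0, with circles, squares and triangles for libraries 1, 2 and 3 of a group and a black line at the group mean. In every panel the Mock and DEX points do not overlap, with wide gaps for *XTH28*, *EXPA4* and *XTH31* and narrow ones for *XTH9*, *EXPA9*, *EXPB3* and *EXPA6*.

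None of the other 11 tested XTH genes was called, and in all of them the groups overlapped. *XTH27* (AT2G01850), which is known from tracheary elements, had 84.9, 107 and 170.4 CPM in Mock and 108, 84.9 and 147 CPM in DEX (-0.09 ± 0.29, edgeR adjusted p = 0.906). Libraries 3 were the highest in both groups. *XTH32* (AT2G36870), the closest relative of *XTH31*, had 115, 80.0 and 61.1 CPM in Mock and 90.2, 71.1 and 57.2 CPM in DEX (-0.23 ± 0.25, edgeR adjusted p = 0.674). *XTH4* (AT2G06850), which takes part in wood formation, had 86.7, 82.8 and 44.0 CPM in Mock and 85.2, 68.6 and 35.5 CPM in DEX (-0.17 ± 0.36, edgeR adjusted p = 0.843). In these 2 genes libraries 3 were the lowest in both groups, and differences between libraries of a group exceeded the difference between the groups.

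Some large fitted decreases belonged to genes with a wide spread between libraries, which were not called. *XTH7* (AT4G37800) went from 10.03 ± 4.07 to 4.63 ± 2.05 CPM (-1.11 ± 0.42, edgeR adjusted p = 0.160; called with DESeq2 at 0.038), and *XTH16* (AT3G23730) was at 0.564 ± 0.237 and 0.296 ± 0.155 CPM (-0.90 ± 0.47, 0.315). *XTH8* (AT1G11545) had a fitted change of -0.61 ± 0.27 (edgeR adjusted p = 0.242), and *XTH5* (AT5G13870) one of -0.29 ± 0.21 (0.497). Values nearer to 0 were found for *XTH30* (AT1G32170; -0.26 ± 0.28, edgeR adjusted p = 0.676; called without DEX 3 at 0.0384), *XTH15* (AT4G14130; -0.17 ± 0.42, 0.869) and *XTH10* (AT2G14620; -0.04 ± 0.26, 0.955).

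*XTH22* (AT5G57560), also known as *TCH4*, was named for its induction by touch. It gave 4.83, 8.60 and 24.5 CPM in Mock and 7.70, 6.10 and 21.0 CPM in DEX. Both libraries 3 were well above the rest and the groups overlapped (-0.13 ± 0.66, edgeR adjusted p = 0.944). A group of 6 other genes that respond to touch or wounding had summed levels of 386 to 452 CPM in Mock and 399 to 523 CPM in DEX. None of the 6 was called by edgeR, DESeq2 or limma-voom (1 at an unadjusted p below 0.05), where edgeR called 11.9% of all genes. The most abundant, *TCH1*, gave 274 ± 1.88 CPM in Mock and 290.2 ± 12.9 CPM in DEX. *TCH3*, *WRKY40*, *ZAT10* and *ZAT12* were highest in libraries 3 of both groups, as *XTH22* was. The rest of the list differed: *TCH1* was highest in Mock 2 and DEX 3, and *TCH2* was highest in Mock 2 and DEX 2 and lowest in Mock 3. *ZAT12*, for instance, had 5.60, 8.54 and 17.6 CPM in Mock and 17.5, 23.0 and 39.1 CPM in DEX (1.32 ± 0.45, edgeR adjusted p = 0.119). The part of handling in the values of *XTH22* was not tested.

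The makeup of each family changed with treatment. The summed RPKM of the 21 expansins was 374, 330.3 and 347 in Mock and 267, 298 and 218 in DEX, so that the groups did not overlap. RPKM carries no TMM factors. With these factors, as CPM, the sums were 452 ± 30.9 in Mock and 347 ± 51.9 in DEX. The share of *EXPA4* in that sum was 44.0% ± 5.02 in Mock and 24.6% ± 3.24 in DEX, while the share of *EXPA15* was 8.89% ± 3.97 and 28.7% ± 3.17 (SD, n = 3). These shares are parts of a whole, and the fall of 1 gene raises the share of the others.

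The 22 XTH genes together gave 616, 630.0 and 609.6 RPKM in Mock and 652, 687 and 724 RPKM in DEX, which did not overlap either. As CPM the sums were 756 ± 7.03 in Mock and 876 ± 46.3 in DEX. *XTH24* made up 33.4% ± 4.13 of the sum in Mock and 53.7% ± 6.82 in DEX. *XTH9* went from 13.3% ± 2.80 to 6.51% ± 1.72 and *XTH28* from 9.36% ± 0.530 to 3.26% ± 0.121 of the family sum, whereas *XTH31* went from 1.09% ± 0.460 to 3.71% ± 0.847. By group, the mean sums were 165 and 114 RPKM for group 1 in Mock and DEX, 227 and 389 RPKM for group 2, and 226 and 185 RPKM for group 3. These sums were not tested.

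**Figure D4:**
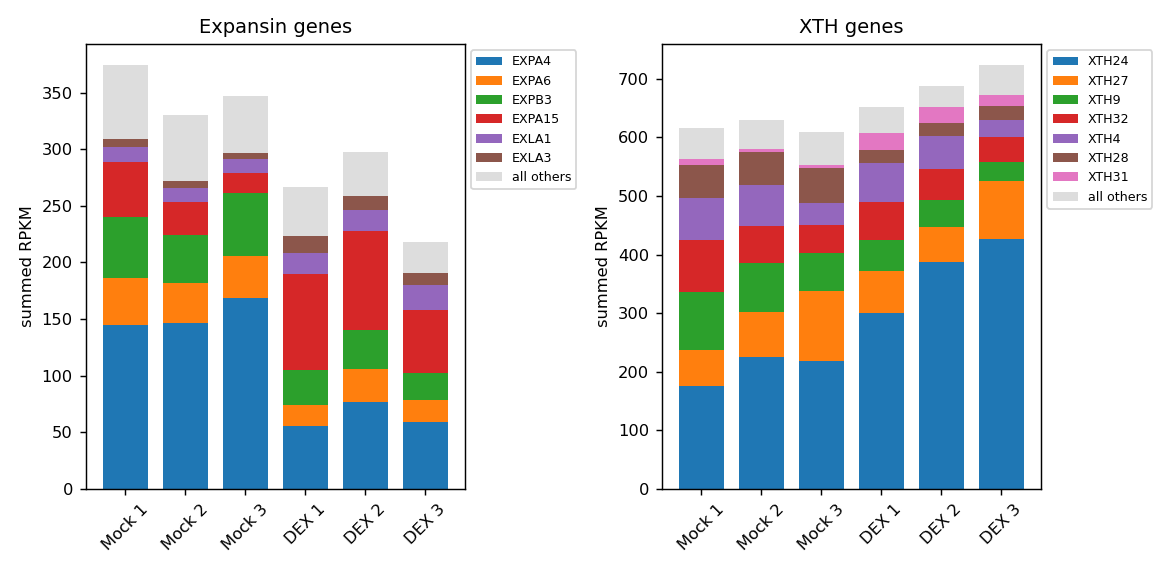
Summed RPKM of all 21 expansins (left) and all 22 XTH genes (right) in each library, stacked by gene, with members not shown by name in light grey. The *EXPA4* section shrinks from 44.0% to 24.6% of the expansin bar between Mock and DEX, and the *XTH24* section grows from 33.4% to 53.7% of the XTH bar.

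Reads over introns come partly from RNA that has not yet been spliced and were listed apart in the tables, although they are included in the total gene reads. They were few and were compared without a test. *EXPA4* had 13, 15 and 6 intron reads in the Mock libraries and 1, 2 and 0 in the DEX libraries. *EXPB3* had 10, 6 and 7 in Mock and 0, 2 and 1 in DEX. For *XTH24* the counts were 14, 29 and 47 in Mock and 36, 47 and 74 in DEX, which overlap, and for *XTH31* they were 2 in all Mock and 13 in all DEX libraries. Over all 8 members that fell, intron reads came to 111 in Mock and 34 in DEX. Of the 111, *EXPA4* held 34 and *EXPB3* 23. Over the 5 that rose they came to 99 and 186, of which *XTH24* alone held 90 and 157. Over 16 uncalled members they came to 108 and 112, of which *XTH27* alone held 68 and 50. *XTH32* (8 and 19) and *EXPA15* (5 and 13) went the other way. *EXLA1* was an exception among the genes that rose, with 7 intron reads in Mock and 5 in DEX. Among those that fell, *EXPA20* had 0 and 1 and *EXPA9* had 7 and 6.

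AUXIN RESPONSE FACTORs bind the letters TGTCTC and, with higher affinity, TGTCGG. Both strands of the 1000 bases before each annotated gene start were searched for these letters. Both motifs begin with TGTC, so no stretch can be counted as both on 1 strand. At least 1 of them was present in 30 of 43 members (69.8%) and in 48.3% of all 27443 protein-coding genes. By response, this was 6 of the 8 genes that fell, 5 of the 5 that rose, 11 of the 17 that were not called and 8 of the 13 that were not tested. *EXPA4* and *EXPA9* had no match, which says only that these letters are missing in this window. Within 250 bases, matches were found in 6 of 43 members (13.95%) and in 14.7% of all genes; 3 of these 6 fell (*EXPA6*, *EXPA10* and *EXPB3*) and 1 rose (*XTH6*).

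The stretches around the match nearest to the start are shown for the genes with the nearest matches in each direction, because they place the same short letters before genes that fell and genes that rose. They are RefSeq sequence of TAIR10.1, each of 60 bases read 5′ to 3′ on the strand of its gene, with the motif in capitals; GAGACA and CCGACA are TGTCTC and TGTCGG on the other strand. The first 4 genes fell. Their matches lie 42 (*EXPA6*, chr2:12433806-12433865, minus strand), 88 (*EXPB3*, chr4:14002180-14002239, minus strand), 119 (*EXPA10*, chr1:9259286-9259345, plus strand) and 480 bases (*XTH9*, chr4:1415110-1415169, plus strand) before the start.
EXPA6: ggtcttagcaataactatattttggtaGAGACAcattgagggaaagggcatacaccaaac
EXPB3: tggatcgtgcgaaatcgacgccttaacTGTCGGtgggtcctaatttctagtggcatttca
EXPA10: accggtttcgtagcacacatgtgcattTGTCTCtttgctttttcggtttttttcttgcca
XTH9: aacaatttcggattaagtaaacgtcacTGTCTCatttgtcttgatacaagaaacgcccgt

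The next 4 genes rose. Their matches lie 238 (*XTH6*, chr5:26298463-26298522, plus strand), 287 (*EXLA3*, chr3:16892388-16892447, plus strand), 292 (*XTH24*, chr4:14820855-14820914, minus strand) and 613 bases (*XTH31*, chr3:16449425-16449484, minus strand) before the start.
XTH6: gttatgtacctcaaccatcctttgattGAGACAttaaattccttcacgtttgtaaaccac
EXLA3: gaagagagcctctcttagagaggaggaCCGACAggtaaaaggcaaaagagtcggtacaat
XTH24: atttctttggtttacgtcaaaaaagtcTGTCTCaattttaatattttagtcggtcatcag
XTH31: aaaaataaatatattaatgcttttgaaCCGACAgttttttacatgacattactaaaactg
A match is not a shown binding site. The matches of the other called genes lay 483 (*EXPA20*), 506 (*XTH28*) and 743 bases (*EXLA1*) before the start.

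Other genes of wall growth were read beside the members. Over all genes tested, edgeR called 2327 of 19598 (11.9%), DESeq2 2949 of 21525 and limma-voom 2282 of 19598. The lists are too small for their counts to be set against these shares. None of the 13 genes for xyloglucan synthesis was called by edgeR (median log2 fold change 0.07; 3 at an unadjusted p below 0.05, 1 called by DESeq2 and 0 by limma-voom). DESeq2 called *XLT2* (0.66, adjusted p = 0.0393), a galactosyltransferase gene. The most abundant of the list, the xylosyltransferase gene *XXT2*, had 119 ± 17.9 CPM in Mock and 130.2 ± 24.7 CPM in DEX. Likewise, edgeR called none of 3 genes for enzymes that trim xyloglucan side chains (median -0.05; 0 at an unadjusted p below 0.05, 0 by DESeq2 and 0 by limma-voom), of which *XYL1* was the most abundant with 56.2 ± 6.38 and 61.0 ± 12.6 CPM. Among 9 genes for cellulose synthesis in primary walls edgeR called none (median 0.05; 1 at an unadjusted p below 0.05, 1 by DESeq2 and 0 by limma-voom). These were led by *KOR1*, a membrane-bound endoglucanase gene, with 1399 ± 20.5 CPM in Mock and 1317 ± 3.70 CPM in DEX. The gene that DESeq2 called, the cellulose synthase gene *CESA2*, went from 261 ± 68.7 to 478 ± 146 CPM (0.87 ± 0.27, edgeR adjusted p = 0.0919, DESeq2 adjusted p = 0.00721).

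Of 6 genes for wall acidification, edgeR called 1, which fell, where 11.9% of all genes were called. At an unadjusted p below 0.05 there were 4, and 2 were called by DESeq2 and 1 by limma-voom. It was *APD7* (AT5G02760), a type 2C protein phosphatase of clade D, a clade known to switch off plasma membrane proton pumps. Its level went from 1.10 ± 0.170 to 0.153 ± 0.0218 CPM (-2.80 ± 0.29, edgeR adjusted p = 0.0011). *APD7* was weakly expressed, with 129 reads in all 6 libraries together and a DEX level near the limit of 3 reads. *APD6*, of the same clade and far more abundant, had 42.7 ± 2.22 CPM in Mock and 49.8 ± 4.24 CPM in DEX (0.22 ± 0.09, edgeR adjusted p = 0.186). The pump genes *AHA2* (-0.05), *AHA3* (0.07) and *AHA11* (0.21) were not called by edgeR either. The proton pump gene *AHA1* had 628 ± 51.2 CPM in Mock and 817.5 ± 36.3 CPM in DEX (0.38 ± 0.10, edgeR adjusted p = 0.0597), which missed the threshold but was called by DESeq2 (0.00262).

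The 13 members that could not be tested had 0 to 35 reads each in all 6 libraries together. They were *EXPA2*, *EXPA7*, *EXPA8*, *EXPA11*, *EXPA14*, *EXPA16* and *EXPB1* of the expansins and *XTH17*, *XTH18*, *XTH19*, *XTH23*, *XTH25* and *XTH33* of the XTH genes. *EXPA7* is known from root hairs and *EXPA2* from germinating seeds, and each had 1 read. *XTH17*, a root gene, had none. Any change in these genes was not detectable at this depth. Of the family members outside the 43, 3 of 15 expansin genes and 2 of 11 XTH genes could be tested. None of them was called by edgeR, DESeq2 or limma-voom or had an unadjusted p below 0.05 (0 of 5). Over all genes edgeR called 11.9%, and 5 genes are too few to be set against that share. The most abundant were *EXPA17* (1.37 ± 0.410 and 1.67 ± 0.571 CPM) and *XTH29* (0.833 ± 0.250 and 1.14 ± 0.221 CPM).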

How the data were processed

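RNA was extracted from second internodes of 35S::Myc-GR-bdl stems, 3 Mock and 3 DEX samples. CLC Genomics Workbench was the authors' aligner, with TAIR10 as the genome. The deposited counts per gene were of 4 kinds (all reads, uniquely placed reads, and those over exons or introns). RPKM was computed by the authors with the length of the exons and the sum over genes, and could be recomputed within a relative difference of 1.6e-14. Exon length stands in the deposited tables in bases. Libraries kept the strand; the sources used here do not say whether counting did.

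Entries without a gene name (5 of 33323, 0.093% to 0.1353% of reads) were left out. Total gene reads were fitted with edgeR 4.0.16 in R 4.3.3 (filterByExpr, TMM, two-sided quasi-likelihood F test), which left 19598 genes and removed 13718 holding 0.0298% of reads. P-values were adjusted by Benjamini-Hochberg over all genes tested, and genes were called below 0.05. Standard errors are the log2 fold change divided by the square root of F. The biological coefficient of variation was 15.8%, and the script was tested on simulated data. Replicates differed by a chi-square per degree of freedom of 22.5 to 69.4, so no library was a duplicate. Alternatives were other scalings, filters, DESeq2 1.42.0, limma-voom (3.58.1), other read columns, a replicate block and each library left out. Promoter and overlap data came from RefSeq TAIR10.1.

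Genes given with the value of every library were all called members and, in each family, the 3 uncalled members with the highest mean RPKM. *XTH22* and the companion genes *ZAT12*, *CESA2*, *XLT2*, *SUC2*, *APL* and *AHA1* were added after their values were seen. So were *PXY*, *ATML1*, *CESA4*, *CESA7*, *CESA8*, *APD6*, *AHA2*, *AHA3* and *AHA11*. From each companion list, up to 4 called genes with the smallest adjusted p, or otherwise the most abundant gene, were named. The members and lists were chosen with earlier results of these data known. Some members (*EXPA4*, *EXPA15*, *EXPB3*, *EXLA3*, *XTH6*, *XTH9* and *XTH24*) also stand in the study's own list of genes that was drawn partly from the same libraries, so that their calls and that choice share data. One gene read as a check of the auxin response is not reported here.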

Additional observations from a re-analysis of the deposited data

How the results depend on the processing

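With 3 libraries a group, the number of calls depended on single libraries. All genes called numbered 2327, and 1305 (without Mock 2) to 2198 without 1 library; expansins called numbered 8, and 4 to 6; XTH genes called numbered 5, and 3 to 5. The replicate block called 3980 genes, 11 expansins and 7 XTH genes. Deviations of libraries with the same number correlated at 0.59, 0.065 and 0.577 for numbers 1, 2 and 3. Mock 3 with DEX 1 gave -0.518 and Mock 1 with DEX 3 gave -0.606. The remaining pairs of unlike numbers lay between -0.209 and 0.161. The labels do not say what a number stands for, and the block was kept as an alternative only. Other scalings, filters, read columns, DESeq2 and limma-voom gave 7 to 9 expansins and 5 to 6 XTH genes.

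No called member changed direction in any of the 16 alternatives. Some uncalled genes with fitted changes below 0 came out above 0 when a library was left out (range over the 6 omissions, and the omissions that did so): *EXPA3* (-0.46 to 0.14; Mock 1, and DEX 3 with 0.11), *EXPA5* (-1.11 to 0.03; Mock 1), *XTH4* (-0.45 to 0.11; DEX 3), *XTH10* (-0.26 to 0.16; Mock 1, and Mock 3 with 0.00), *XTH15* (-0.52 to 0.33; Mock 1, and DEX 3 with 0.07), *XTH22* (-0.88 to 0.79; Mock 3, DEX 1 with 0.10 and DEX 2 with 0.17), *XTH27* (-0.32 to 0.24; Mock 3, and DEX 2 with 0.08) and *XTH32* (-0.42 to 0.05; Mock 1). With limma-voom *XTH10* was at 0.01. The cause was not tested. *EXPA1*, *EXLA2*, *XTH7*, *XTH8* and *EXPA15* were called with the replicate block (adjusted p of 0.0267, 0.0222, 0.000816, 0.0208 and 0.00113), whose pairing the numbers do not establish.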

Other observations

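Libraries that carry the same number in both groups shared an order for many of these genes. The level was highest in libraries 1 and lowest in libraries 3 in both Mock and DEX for 12 of the 30 tested members (40.0%): *EXPA3*, *EXPA5*, *EXPA13*, *EXPA15*, *EXLA2*, *XTH4*, *XTH7*, *XTH8*, *XTH9*, *XTH15*, *XTH16* and *XTH32*. Over all 19598 genes tested this was the case for 2120 (10.8%). Only *XTH9* of the 12 was called. The opposite order, highest in libraries 3 and lowest in libraries 1 of both groups, was seen for 0 of the 30 members and for 1892 of all genes (9.65%). The labels give the number and nothing on what the libraries of a number share.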
